A study of Rattus norvegicus and Mus musculus with 12 samples.

Results

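The genes described here encode the proteins of elastic fibres and the enzymes that cross-link them: the elastic core protein Eln, the fibrillins Fbn1 and Fbn2, the assembly protein Fbln5, the microfibril proteins Mfap2, Mfap4 and Mfap5, and the lysyl oxidases Lox, Loxl1 and Loxl2. They were found by their gene names in RNA-seq tables of rat and mouse chondrocytes. All 10 were found among the 28603 genes of the mouse table and 9 among the 19687 genes of the rat table, where Mfap4 was not analysed here. There were 12 libraries in 4 groups, 3 in each. The RC and RM groups were chondrocytes of SD rats, and the MC and MM groups were chondrocytes of mice. The RM and MM groups (model) had received IL-1β, an inflammatory cytokine, at 20 ng/ml for 24 h, and the RC and MC groups (control) had not. All cells were cultured from the articular cartilage of newborn animals and used at passage 1. The strain labels of the MC libraries were C57BL/6, C57BL/7 and C57BL/8 and those of the MM libraries C57BL/7, C57BL/8 and C57BL/9, whereas the study's methods name C57BL/6. The study asked whether chondrocytes of both species respond alike to the cytokine.

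In an elastic fibre, a core of cross-linked elastin lies on a sheath of fibrillin microfibrils, to which the microfibril-associated proteins bind. Fibulin-5 brings elastin to the microfibrils, and lysyl oxidases oxidise lysine side chains of elastin and collagen, which then join into covalent cross-links. Elastic fibres are abundant in arteries, lung and elastic cartilage and sparse in articular cartilage, where fibrillin microfibrils surround chondrocytes and lysyl oxidases stabilise the collagen network.

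Total counts ran from 20169272 to 25903459 in the rat libraries and from 16841580 to 20048322 in the mouse libraries. Levels are given as FPKM, the count divided by gene length and by the library's total. Changes are given as log2 fold changes of model against control fitted by edgeR to the counts, with libraries scaled by TMM, and a gene was called at an adjusted P under 0.05. The scaling mattered in mouse, where all genes tested had a median of -0.02 under TMM and of -0.30 under library totals alone, so that ratios of mouse FPKM lie lower than the fitted changes by about this shift. In rat these medians were 0.01 and 0.02.

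In rat, 2 of the 9 genes tested rose, against 18.3% of all 13303 genes tested, and 6 fell, against 16.8%. In mouse, 2 of the 10 rose, against 37.4% of all 14774 genes tested, and 8 fell, against 37.7%. Lox rose in both species. Eln, Fbn2, Fbln5, Mfap2 and Loxl1 fell in both. Fbn1 rose in rat and fell in mouse, Loxl2 fell in rat and rose in mouse, and Mfap5 was called in mouse alone. The median log2 fold change of the genes was -0.51 in rat and -0.94 in mouse. Their median absolute log2 fold change was 1.12 in rat, beside 0.26 for all genes, and 1.69 in mouse, beside 0.51 for all genes. Scaling by library totals turned none of these directions, but it moved the calls of all mouse genes from 5521 higher and 5564 lower to 3697 higher and 8077 lower. In rat, upper quartile scaling moved them from 2429 higher and 2238 lower to 2052 and 2855. The study's criteria for DEGs name a fold change of 0.85, a P of 0.05 and an FPKM of 1, without giving the scale or whether P was adjusted. Read here as P before adjustment and log2 fold changes in either direction, they left 2 of the genes higher in rat (4.64% of all genes tested) and 4 lower (3.9%). In mouse 2 were higher (12.6%) and 5 lower (13%) by this reading, which left out Loxl1 and Loxl2 in rat and Fbn1, Fbln5 and Loxl1 in mouse. The study's methods describe the 3 samples of a group as independent, but neither they nor the labels say whether these were separate animals or cultures, so P values measure the spread between these libraries, which was smaller in mouse (biological coefficient of variation 0.0318) than in rat (0.106). In these bulk samples, fewer cells of a type and less RNA per cell cannot be told apart.

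**Figure D1:**
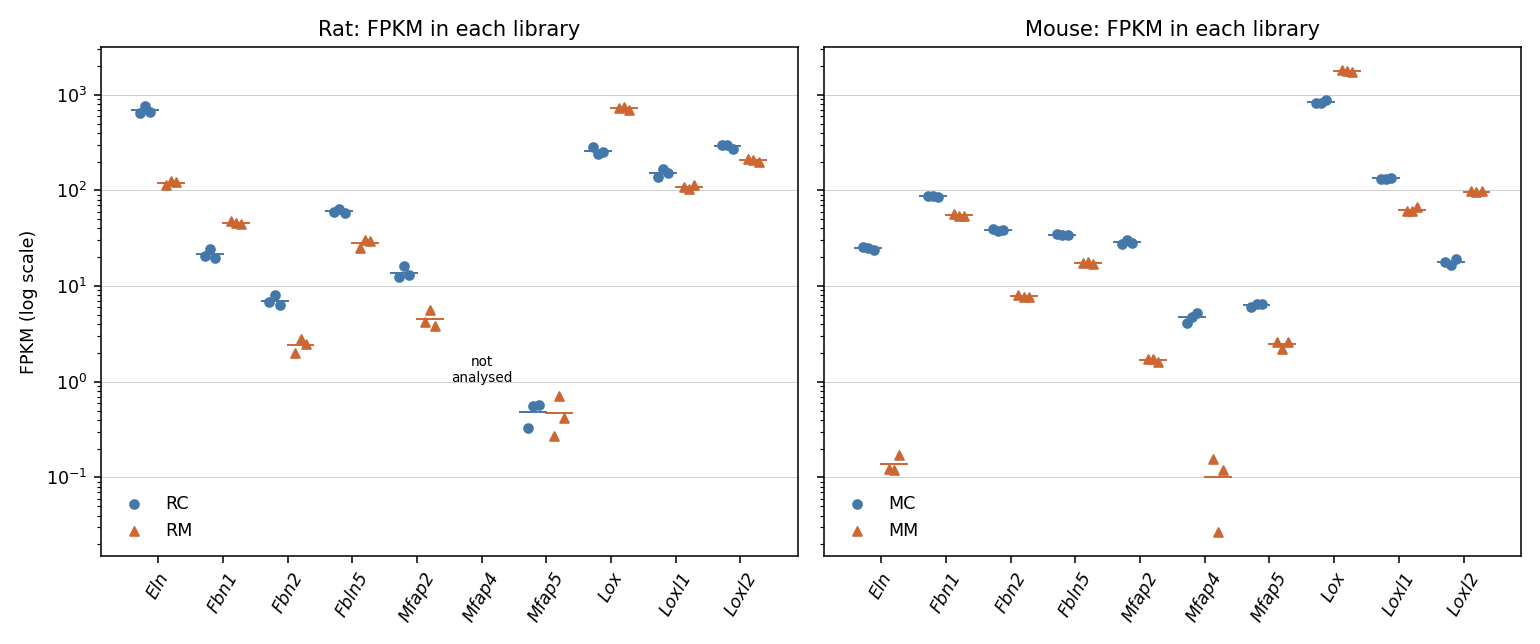
FPKM of each gene in each library on a log axis, rat on the left and mouse on the right, with circles for control libraries, triangles for model libraries and short lines for group means (n = 3). Control and model libraries of Mfap5 overlap in rat, and those of every other gene shown do not overlap in either species.

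Eln encodes tropoelastin, the soluble monomer of elastin. Its sequence alternates between hydrophobic stretches and short stretches rich in alanine and lysine, where the lysines are the substrate of the lysyl oxidases. The main mouse coding transcript (GENCODE M21) has 37 exons and 860 codons before the stop, of which 181 encode alanine and 38 lysine. Lysine codons separated by 2 or 3 alanine codons, the spacing of a cross-linking stretch, occurred 12 times, and 10 exons held such a pair whole. The coding bases of 4 of these exons are shown because they carry the sites on which the enzymes described below act. They are read 5′ to 3′ on the minus strand of chromosome 5 (GRCm38), whole codons only, with lysine codons in capitals.
Exon 18, chr5:134718990-134719046: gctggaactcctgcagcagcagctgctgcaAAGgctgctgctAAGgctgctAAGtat
Exon 20, chr5:134716993-134717043: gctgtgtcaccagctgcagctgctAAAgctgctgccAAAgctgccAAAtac
Exon 26, chr5:134712407-134712463: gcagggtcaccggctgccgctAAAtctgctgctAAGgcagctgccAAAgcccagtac
Exon 30, chr5:134707822-134707881: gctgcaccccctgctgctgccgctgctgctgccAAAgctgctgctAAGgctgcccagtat
Exons 18 and 20 each held 2 such pairs, and exons 26 and 30 held 1 each. Of the 19 codons shown for exon 18, 12 encode alanine, and of the 20 shown for exon 30, 14 do.

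Eln fell furthest in both species among the 10 elastic fibre and lysyl oxidase genes. In rat, its FPKM was 649.9, 764.4 and 657.7 in the 3 RC libraries and 114.2, 124.2 and 121.6 in the 3 RM libraries. All RM libraries lay far below all RC libraries, with the model values close to each other. The fitted log2 fold change was -2.54 ± 0.079 (SE, edgeR, adjusted P = 8.09e-09), a 5.82-fold fall, and it ranked 49th from the lowest of 13303 genes. In mouse, the FPKM was 25.6, 25.1 and 24.1 in the MC libraries and 0.123, 0.12 and 0.17 in the MM libraries. The mouse control libraries were nearly equal, and the model libraries held few reads, with 20, 19 and 24 counts against 3547, 3428 and 3498. There the fitted log2 fold change was -7.23 ± 0.083 (SE, edgeR, adjusted P = 1.56e-62), a 150.0-fold fall that ranked 24th from the lowest of 14774 genes. The change in mouse exceeded that in rat by -4.69 on the log2 scale (95% CI -5.00 to -4.38, edgeR, adjusted P = 6.04e-14). It was -2.00 with limma on log2(FPKM + 1), where the pseudocount exceeds the FPKM of the MM libraries. Mouse Eln lies at chr5:134702593-134747323 on the minus strand, and the antisense gene Gm30003 overlaps its exons. The gene length behind the FPKM was 8098 bases in mouse, all annotated exons merged, against 3853 bases for the main transcript and 3588 bases for the rat gene. Levels of the species are therefore given side by side and not compared.

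Fbn1 encodes fibrillin-1, the main microfibril protein after birth, and Fbn2 encodes fibrillin-2, which is made mainly during development. In rat, Fbn1 had an FPKM of 20.8, 24.5 and 19.7 in the RC libraries and 47.7, 45.3 and 45.1 in the RM libraries. Every RM library was higher than every RC library. The rise was 1.07 ± 0.085 on the log2 scale (SE, edgeR, adjusted P = 7.04e-06). In mouse, Fbn1 had an FPKM of 86.8, 87.4 and 85.3 in the MC libraries and 57.2, 53.7 and 53.6 in the MM libraries. Here the order was the reverse, with every MM library below every MC library. The fitted change was -0.38 ± 0.027 (SE, edgeR, adjusted P = 1.48e-19), and it was -0.66 when the libraries were scaled by their totals. The difference of the changes, mouse minus rat, was -1.45 on the log2 scale (95% CI -1.65 to -1.25, edgeR, adjusted P = 5.17e-10). Over the 10912 genes tested in both species, 795 (7.29%) were like Fbn1 called higher in RM and lower in MM.

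Fbn2 fell in both species. Its FPKM was 6.74, 8.08 and 6.33 in the RC libraries and 2.00, 2.78 and 2.49 in the RM libraries. Mouse values were 39.3, 37.9 and 38.7 in the MC libraries and 8.11, 7.67 and 7.73 in the MM libraries. The groups did not overlap in either species, and the mouse libraries within a group were closer together than the rat ones. The log2 fold change was -1.55 ± 0.13 in rat (SE, edgeR, adjusted P = 1.04e-05) and -2.02 ± 0.035 in mouse (adjusted P = 3.34e-52). These differed by -0.47 (95% CI -0.76 to -0.19, edgeR, adjusted P = 0.00554), a difference that was -0.77 with library totals and -0.93 with limma on log2(FPKM + 1). Mouse Fbn1 lies at chr2:125300594-125507993 and Fbn2 at chr18:58008623-58210487 (GRCm38), both on the minus strand, and each has a gene on the opposite strand over its exons (Gm9913 and Gm26507).

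Fbln5 encodes fibulin-5, the protein that links elastin to microfibrils and to cell-surface integrins. Its FPKM was 60.2, 64.3 and 58.2 in the RC libraries and 25.1, 30.2 and 29.8 in the RM libraries. Mouse values were 35.2, 34.2 and 34.2 in the MC libraries and 17.4, 18.0 and 17.2 in the MM libraries. All model libraries of each species were below all its control libraries. The log2 fold change was -1.12 ± 0.088 in rat (SE, edgeR, adjusted P = 6.78e-06) and -0.70 ± 0.035 in mouse (adjusted P = 2.8e-27). Fbln5 was the only gene of the set that fell less in mouse than in rat, by a difference of 0.41 (95% CI 0.22 to 0.61, edgeR, adjusted P = 0.000885). This difference was 0.12 with library totals alone (adjusted P = 0.26) and 0.14 with limma on log2(FPKM + 1) (adjusted P = 0.198), and neither passed the threshold.

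Mfap2 and Mfap5 encode the microfibril-associated glycoproteins, and Mfap4 encodes a fibrinogen-related protein of the elastic fibre. Mfap2 had an FPKM of 12.4, 16.1 and 13.1 in the RC libraries and 4.17, 5.60 and 3.80 in the RM libraries. In mouse it had 27.4, 30.5 and 28.3 in the MC libraries and 1.73, 1.73 and 1.61 in the MM libraries. Both species showed separate groups, and the gap was wider in mouse. The log2 fold change was -1.63 ± 0.17 in rat (SE, edgeR, adjusted P = 5.16e-05) and -3.80 ± 0.12 in mouse (adjusted P = 1.27e-38), with a difference of -2.18 (95% CI -2.64 to -1.72, edgeR, adjusted P = 1.51e-07). Mfap4 in mouse had an FPKM of 4.13, 4.79 and 5.19 in the MC libraries and 0.156, 0.0266 and 0.119 in the MM libraries. The model values rest on 6, 1 and 4 counts, so their order among themselves is not informative, whereas the controls held 136, 155 and 179 counts. The fitted log2 fold change of Mfap4 was -5.23 ± 0.28 (SE, edgeR, adjusted P = 1.83e-25). Mfap4 lies at chr11:61485431-61488900 and shares exon bases with Mapk7 on the opposite strand.

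Mfap5 was near the limit of detection in rat, with 9, 14 and 13 counts in the RC libraries and 6, 20 and 11 in the RM libraries. The rat groups overlapped. Its log2 fold change there was -0.02 (95% CI -0.99 to 0.95, edgeR, adjusted P = 0.977), an interval that spans almost a doubling in either direction. In mouse, Mfap5 had an FPKM of 5.99, 6.55 and 6.56 in the MC libraries and 2.63, 2.21 and 2.61 in the MM libraries, with no overlap. The mouse log2 fold change was -1.08 ± 0.095 (SE, edgeR, adjusted P = 6.23e-16). The difference between species was -1.08 (95% CI -1.88 to -0.28, edgeR, adjusted P = 0.0192), but it was -0.84 without RC replicate 1 (adjusted P = 0.0659) and -0.63 without RM replicate 2 (adjusted P = 0.209). It also missed the threshold with all libraries kept and the spread estimated in each species alone (-1.06, adjusted P = 0.0559).

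Lox encodes lysyl oxidase itself, and it was the most abundant gene of the set per length in the RM, MC and MM groups. Its FPKM was 286.8, 237.6 and 250.5 in the RC libraries and 720.1, 752.9 and 692.6 in the RM libraries. In mouse it was 822.3, 812.6 and 874.2 in the MC libraries and 1793.6, 1769.1 and 1744.5 in the MM libraries. Every model library was above every control library of its species. In the MM libraries, Lox took between 0.839% and 0.863% of all counts and ranked 11th of all genes by FPKM in each. The log2 fold change was 1.47 ± 0.077 in rat (SE, edgeR, adjusted P = 4.06e-07) and 1.36 ± 0.024 in mouse (adjusted P = 2.08e-52). The difference of these changes was -0.11 (95% CI -0.29 to 0.08, edgeR, adjusted P = 0.302) and was not called. Its call depended on scaling, since with library totals the difference was -0.40 (adjusted P = 0.000663), and it was also called without RC replicate 1 (-0.17, adjusted P = 0.0311). The mouse gene lies at chr18:52516067-52529867 on the minus strand, with the antisense gene AC161119.1 over its exons.

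Loxl1 encodes the lysyl oxidase-like enzyme that is bound by fibulin-5 and acts on elastin. Its FPKM was 138.0, 166.1 and 152.3 in the RC libraries and 108.4, 104.7 and 114.7 in the RM libraries. The mouse values were 132.7, 131.3 and 136.3 in the MC libraries and 60.6, 61.2 and 66.9 in the MM libraries. The groups were separate in both species, but the rat fall was small. The log2 fold change was -0.49 ± 0.079 in rat (SE, edgeR, adjusted P = 0.000774) and -0.81 ± 0.032 in mouse (adjusted P = 3.6e-32), with a difference of -0.31 (95% CI -0.50 to -0.13, edgeR, adjusted P = 0.00544). This difference was -0.61 with library totals and -0.60 with limma on log2(FPKM + 1). It lies at chr9:58287738-58313186 in mouse, with no other gene over its exons.

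Loxl2 encodes a lysyl oxidase-like enzyme that cross-links basement membrane collagen IV and is also made by hypertrophic chondrocytes. In rat its FPKM was 301.1, 301.9 and 270.6 in the RC libraries and 214.7, 208.8 and 197.8 in the RM libraries. In mouse it was 17.9, 16.8 and 19.3 in the MC libraries and 98.3, 95.7 and 97.7 in the MM libraries. The species moved in opposite directions, down in every rat model library and up in every mouse model library. The log2 fold change was -0.51 ± 0.069 in rat (SE, edgeR, adjusted P = 0.000256) and 2.71 ± 0.036 in mouse (adjusted P = 4.18e-59). The difference was 3.22 (95% CI 3.04 to 3.40, edgeR, adjusted P = 8.94e-15). Among the 10912 genes tested in both species, 565 (5.18%) were called lower in RM and higher in MM. Mouse Loxl2 lies at chr14:69609068-69695834 on the plus strand, and Gm27177 on the opposite strand and the microRNA gene Mir6950 overlap its exons.

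**Figure D2:**
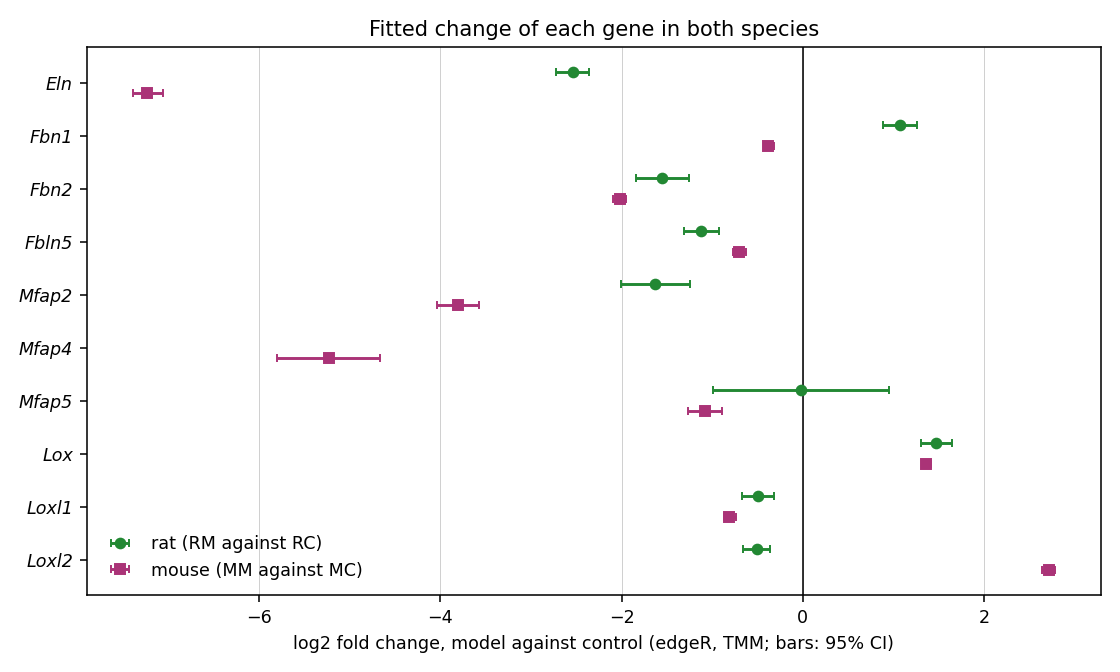
Fitted log2 fold change of model against control for each gene, with circles for rat and squares for mouse and bars for the 95% CI (edgeR, n = 3 per group). Lox lies right of 0 in both species, Fbn1 and Loxl2 lie on opposite sides of 0, and the rat interval of Mfap5 (-0.99 to 0.95) spans 0.

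Of the 9 genes tested in both species, the mouse change less the rat change was above 0 and called for 2 (Fbln5 and Loxl2), against 31.4% of the 10912 shared genes. It was below 0 and called for 6 (Eln, Fbn1, Fbn2, Mfap2, Mfap5 and Loxl1), against 32.3%. The share of all genes that differed was thus high, and the set is read against it. The sizes ranged from -4.69 for Eln to 3.22 for Loxl2. With limma on log2(FPKM + 1), Mfap2 (-2.03) and Eln (-2.00) were lowest and Loxl2 (2.86) highest.

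**Figure D3:**
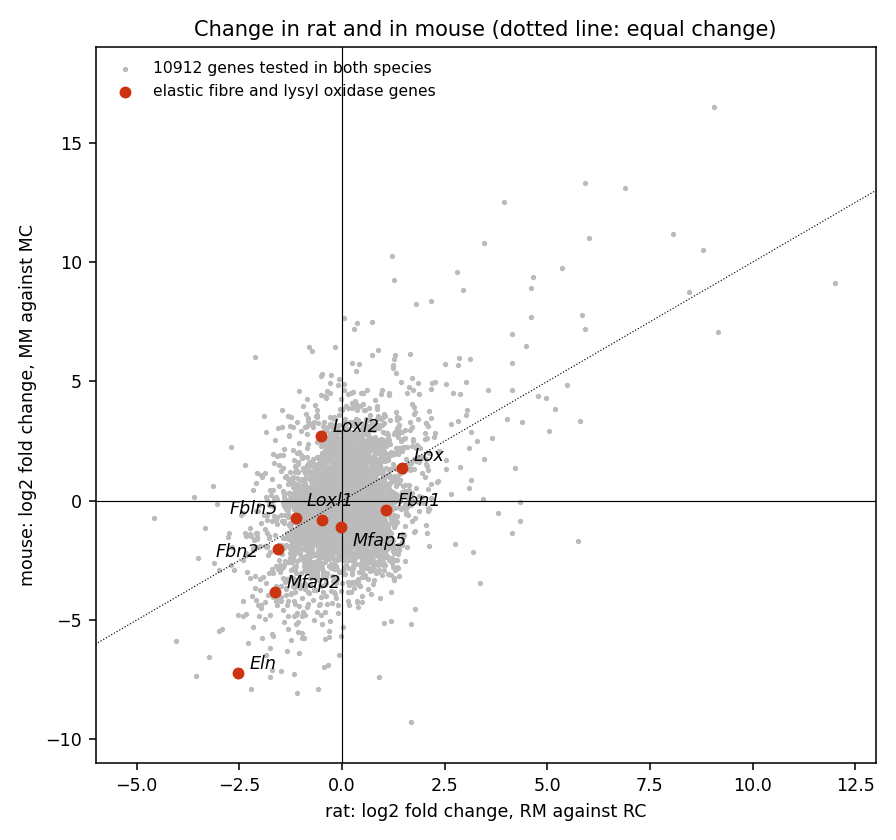
Log2 fold change in rat (x axis) and in mouse (y axis) of the 10912 genes tested in both species, grey, with the 9 genes of the set in red and a dotted line of equal change. Eln lies at -2.54 and -7.23, near the lower edge of the cloud, and Lox at 1.47 and 1.36, close to the line of equal change.

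The order of the levels per length changed with the cytokine. In the RC group the mean FPKM ran from Eln (690.7 ± 64.0, SD, n = 3) through Loxl2 (291.2 ± 17.9) and Lox (258.3 ± 25.5), whose libraries overlapped, to Loxl1 (152.1 ± 14.1) and Fbln5 (60.9 ± 3.11), with Fbn1, Mfap2 and Fbn2 below and Mfap5 last. In the RM group Lox came first (721.9 ± 30.2), then Loxl2 (207.1 ± 8.58), and Eln (120.0 ± 5.23) had come down to the level of Loxl1 (109.3 ± 5.08), with which its libraries overlapped. Fbn1 (46.0 ± 1.42) stood above Fbln5 (28.4 ± 2.87) there, the reverse of the control order. In the MC group Lox (836.4 ± 33.1) was followed by Loxl1 (133.5 ± 2.59), Fbn1 (86.5 ± 1.06) and Fbn2 (38.6 ± 0.709), and no neighbours in the order overlapped. Eln (24.9 ± 0.787) stood between Mfap2 (28.8 ± 1.57) and Loxl2 (18.0 ± 1.26). In the MM group Lox (1769.1 ± 24.5) was followed by Loxl2 (97.2 ± 1.37), while Eln (0.138 ± 0.0277) and Mfap4 (0.1 ± 0.0665) came last and overlapped.

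Ratios of genes within a library do not depend on how libraries are scaled against each other. Eln over Fbn1, the elastic core against its scaffold, was 31.3, 31.2 and 33.5 in the RC libraries and 2.40, 2.74 and 2.69 in the RM libraries. In mouse it was 0.295, 0.288 and 0.282 in the MC libraries and 0.00216, 0.00223 and 0.00316 in the MM libraries. The ratio was lower in every model library than in any control library of its species, with log2 changes of -3.62 (rat) and -6.86 (mouse). Fbn2 over Fbn1, the developmental against the main fibrillin, was 0.324, 0.330 and 0.322 in the RC libraries and 0.0420, 0.0615 and 0.0551 in the RM libraries. In mouse it was 0.453, 0.434 and 0.454 in the MC libraries and 0.142, 0.143 and 0.144 in the MM libraries. Here the change in rat (-2.64 on the log2 scale) was the larger one beside mouse (-1.64), with Fbn1 up in rat and down in mouse. For each ratio and species the exact two-sided permutation test gave P = 0.1, the smallest that 3 libraries against 3 can give.

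Lox made up 39.5%, 33.7% and 37.2% of the summed FPKM of Lox, Loxl1 and Loxl2 in the RC libraries and 69.0%, 70.6% and 68.9% in the RM libraries. In mouse its share was 84.5%, 84.6% and 84.9% in the MC libraries and 91.9%, 91.9% and 91.4% in the MM libraries. The share was higher in every model library of both species (exact two-sided permutation P = 0.1 in each). With raw counts, which carry gene length, this rise was 28.39 percentage points in rat in place of 32.72 and 3.85 in mouse in place of 7.03. By counts Lox also exceeded Loxl2 in the RC group (86268 against 45478). Of the summed FPKM, the share of Loxl2 fell in rat, from 41.5% ± 1.3 (SD, n = 3) to 19.9% ± 0.55. It rose in mouse, from 1.82% ± 0.065 to 5.04% ± 0.074. Loxl1 had a smaller share with the cytokine in both, at 21.7% ± 2.4 and then 10.5% ± 0.81 for rat, and 13.5% ± 0.24 and then 3.26% ± 0.21 for mouse. Summed FPKM of the 3 enzymes lay between 673.3 and 725.8 in the RC libraries and between 1005.1 and 1066.4 in the RM libraries, and between 960.7 and 1029.9 in the MC libraries and between 1909.1 and 1952.6 in the MM libraries. The summed FPKM of the fibre proteins was lower in the model groups, with sums of 750.5 to 877.9 in RC, 193.3 to 208.8 in RM, 222.4 to 226.5 in MC and 83.1 to 87.3 in MM. In rat the fibre protein sum was mostly Eln, while Fbn1 rose, and the sum of the 3 enzymes rose through Lox alone, while Loxl1 and Loxl2 fell. This sum leaves out Loxl3 and Loxl4, which were called lower in both species. In rat their mean FPKM went from 304.4 to 129.1 (Loxl3) and from 54.9 to 31.4 (Loxl4).

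**Figure D4:**
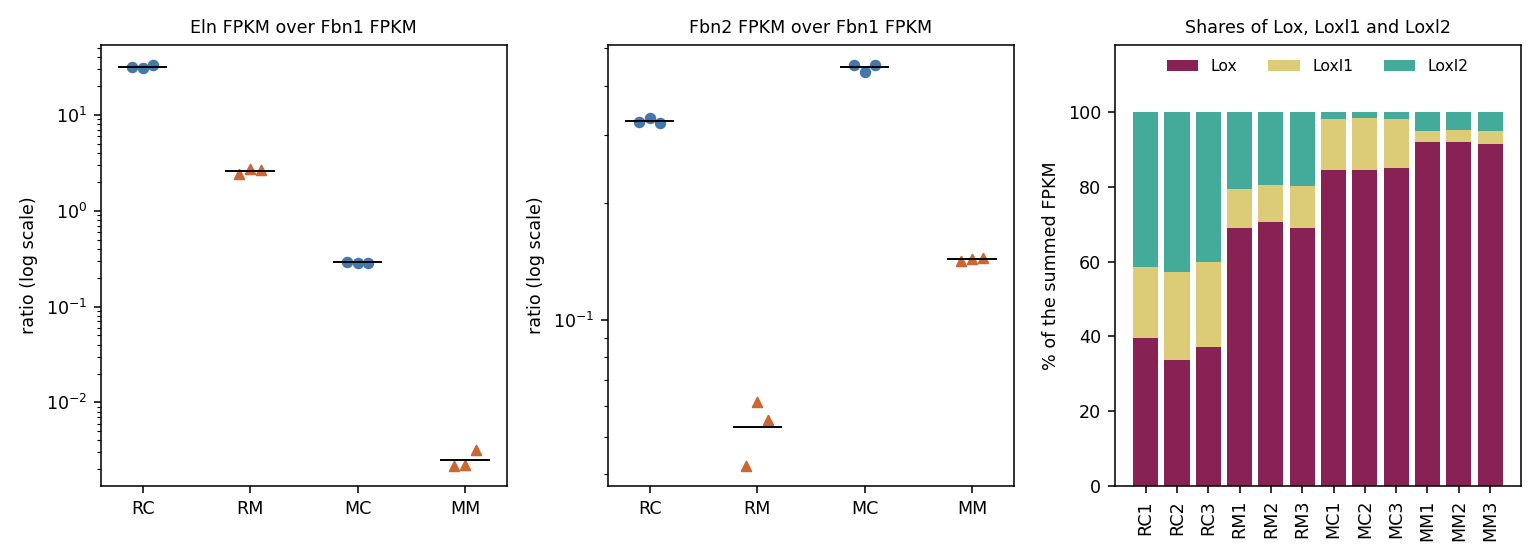
Eln over Fbn1 and Fbn2 over Fbn1 (log axes, 1 point per library, lines for means, n = 3) and the shares of Lox, Loxl1 and Loxl2 in their summed FPKM (stacked bars, 1 per library). The Eln ratio has means of 32.0 (RC), 2.61 (RM), 0.288 (MC) and 0.00252 (MM), and Lox is the largest share in every library but those of the RC group.

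Other proteins of elastic fibres and microfibrils were followed as a list of 19 genes. Of the 15 tested in rat, 5 rose and 6 fell, against 18.3% and 16.8% of all genes tested, with a median log2 fold change of 0.01, equal to that of all genes. Of the 16 tested in mouse, 5 rose and 10 fell, against 37.4% and 37.7% of all genes tested, with a median of -0.24 beside -0.02 for all genes. Efemp1 (fibulin-3) fell in both species, with a log2 fold change of -2.63 in rat (mean FPKM 3.86 to 0.626) and -2.88 in mouse (158.2 to 17.7), and the species difference of -0.26 was not called (edgeR, adjusted P = 0.176). Ltbp2, a microfibril protein that binds fibulin-5, rose by 1.44 in rat, from an FPKM of 64.1 to 175.3, and by 2.50 in mouse, from 21.0 to 97.8. Emilin1, a glycoprotein at the interface of elastin and microfibrils, was up in rat (1.02) and slightly down in mouse (-0.13), with a difference of -1.16 (edgeR, adjusted P = 3.36e-09). Thsd4, which promotes the assembly of fibrillin-1, fell by 1.67 in mouse and was not analysed here in rat.

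Lysyl oxidase partners and other cross-linking enzymes made up a list of 16 genes. In rat, 5 of 15 tested rose and 7 fell (18.3% and 16.8% of all genes), with a median log2 fold change of -0.12. In mouse, 7 of 16 rose and 6 fell (37.4% and 37.7% of all genes), with a median of 0.00, and with library totals alone 6 rose and 9 fell. The shift came with genes of small change such as Fn1 (fibronectin, the most abundant gene of the list), which had 0.12 with TMM and -0.16 with totals. The transglutaminase Tgm1 rose by 4.39 in rat and by 3.31 in mouse on the log2 scale, though only to a mean FPKM of 1.29 and 1.87. Tgm2 rose by 1.26 in rat, and its mouse value was 0.04 (edgeR, adjusted P = 0.776). Loxl3, another lysyl oxidase, fell by 1.25 in rat, from a mean FPKM of 304.4 to 129.1, and by 1.08 in mouse, from 25.9 to 10.1. The difference of these 2 falls was 0.18 (edgeR, adjusted P = 0.0815). Periostin (Postn), a matrix protein that supports the activation of Lox, rose by 0.90 in rat and fell by 2.89 in mouse. Plod1, a lysyl hydroxylase that modifies collagen before cross-linking, stood at -0.12 in rat (edgeR, adjusted P = 0.193) and rose by 1.81 in mouse, a difference of 1.93 (adjusted P = 6.72e-13).

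Elastin-degrading enzymes and their inhibitors were a list of 14 genes, of which 11 were tested in each species. In rat 4 rose and 6 fell (18.3% and 16.8% of all genes), and in mouse 6 rose and 5 fell (37.4% and 37.7% of all genes), with median log2 fold changes of -0.24 and 0.45 beside 0.01 and -0.02 for all genes. The gelatinase Mmp9 rose by 5.19 in rat, from a mean FPKM of 0.196 to 7.34, and by 3.83 in mouse, from 0.0553 to 0.665. Mmp12, the macrophage elastase, rose by 2.96 in rat, from an FPKM of 0.490 to 3.88. In mouse it had 3 counts over the MC libraries and 1408 over those of MM, a ratio of 426.8 per total count (exact 95% interval 145.7 to 2072.1, counting error only). The inhibitor Timp3 fell by 1.25 in rat and by 2.40 in mouse, where its FPKM went from 377.4 to 59.0. Timp1 moved the other way and rose by 0.55 in rat and by 2.40 in mouse, from an FPKM of 248.1 to 1077.0. Timp4 fell by 1.31 in rat and changed by -3.36 in mouse, where it went from 49 counts to 4.

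TGF-β is held in the matrix by latent binding proteins on microfibrils, and it induces many matrix genes. Of the 13 genes of its ligands, receptors and targets, 4 rose and 5 fell in rat (18.3% and 16.8% of all genes; median log2 fold change 0.08), and 5 rose and 6 fell in mouse (37.4% and 37.7% of all genes; median -0.12). With library totals alone, the mouse counts were 4 and 8. The feedback inhibitor Smad7 rose by 0.88 in rat and by 1.30 in mouse on the log2 scale. The target Tgfbi fell by 0.84 in rat and by 1.18 in mouse. Of the 3 ligands, 2 fell more in mouse than in rat. Tgfb2 changed by -0.26 in rat and by -2.21 in mouse, a difference of -1.95 (edgeR, adjusted P = 1.83e-11). Tgfb3 had -0.48 and -2.07, a difference of -1.59 (edgeR, adjusted P = 2.82e-11). The third, Tgfb1, was not called in rat (0.08) and rose by 0.80 in mouse, a difference of 0.72 (edgeR, adjusted P = 4.39e-06).

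**Figure D5:**
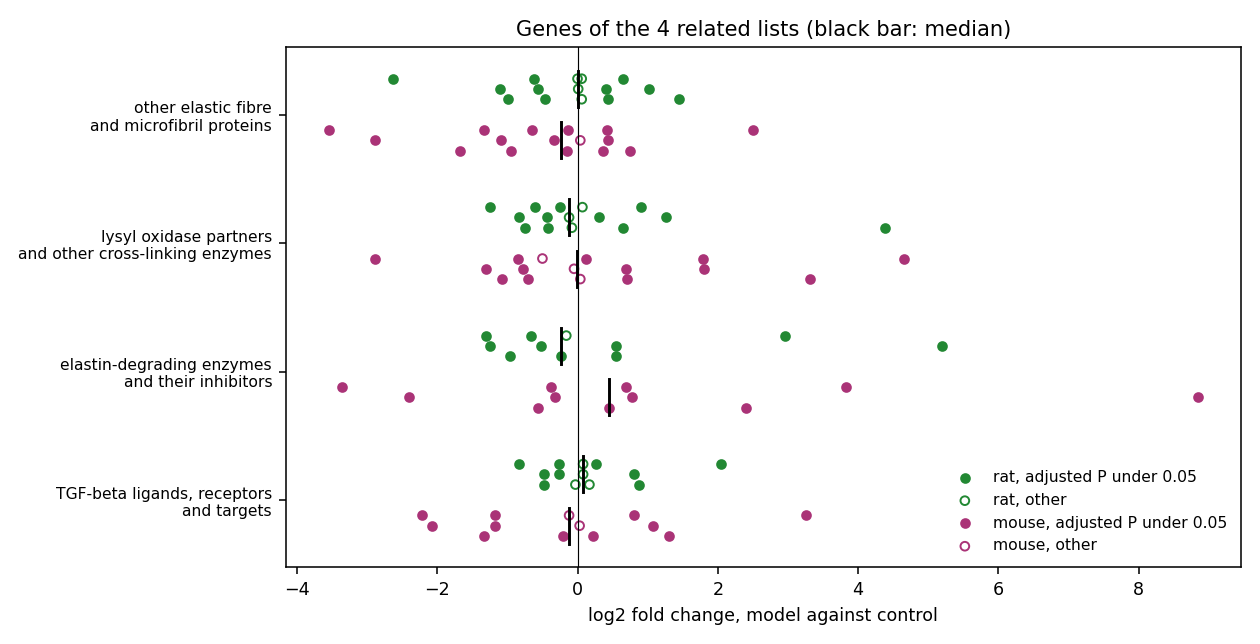
Log2 fold change of each tested gene of the 4 related lists in rat (green) and mouse (purple), filled where the adjusted P was under 0.05, with a black bar at each list's median. The medians lie between -0.24 and 0.45, and each list holds genes on both sides of 0 in both species.

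The genes whose pair of rat and mouse log2 fold changes lay nearest to that of Eln were sought among 9262 genes whose mean FPKM reached 1 in both control groups. They were Matn3 (-1.69 in rat and -7.08 in mouse), Gdf10 (-3.24 and -6.54), Calml3 (-1.86 and -6.48), Ucma (-1.48 and -7.13) and Mlana (-1.75 and -6.16), at Euclidean distances of 0.86 to 1.33 over the 2 comparisons. Matn3 and Ucma are cartilage matrix genes. Nearest to Lox were Mical2 (1.48 and 1.22), Sqor (1.32 and 1.33), Tmem154 (1.66 and 1.39), Serping1 (1.65 and 1.29) and Ddias (1.27 and 1.44), at distances of 0.14 to 0.21. The pattern of Lox thus had close neighbours, and that of Eln lay in a thinly filled range.

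Markers of chondrocytes were present in both species. All 9 fell in both, against 16.8% of all rat and 37.7% of all mouse genes tested, the median being -1.36 in rat and -2.72 in mouse on the log2 scale, and Col2a1 was the most abundant. Their summed FPKM was 5056.2, 5629.8 and 4990.3 in the RC libraries and 1988.7, 2017.5 and 1977.2 in the RM libraries, and 2265.3, 2239.0 and 2283.7 in the MC libraries and 206.7, 210.8 and 219.4 in the MM libraries. Every model sum was below every control sum of its species. Of the fibroblast and perichondrium markers, 2 of 9 rose and 4 fell in rat (18.3% and 16.8% of all genes), and 4 of 8 rose and 4 fell in mouse (37.4% and 37.7% of all genes). The mouse counts were 2 and 5 with library totals. Col1a1 was their most abundant gene except in MM, where Dcn was. Dcn and Lum, small proteoglycans of the collagen matrix, rose in both species, Dcn by 2.27 in rat and by 4.99 in mouse and Lum by 2.01 and by 2.61 on the log2 scale. Col3a1 stood at -0.98 in rat and at 0.16 in mouse, or -0.12 in mouse with library totals. Dpt stood at -3.06 in mouse and was not called in rat (-0.46). Col1a1 lost the most FPKM of the fibroblast and perichondrium markers in both species. The summed FPKM was 3853.5, 4352.4 and 3903.8 (RC), 2882.0, 2996.2 and 3018.7 (RM), 3277.5, 3278.3 and 3312.3 (MC) and 1859.6, 1868.4 and 1858.0 (MM).

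Smooth muscle and pericytes also make elastin in other tissues. Of their markers 1 of 6 rose and 2 fell in rat (18.3% and 16.8% of all genes), led by Tagln, with a summed FPKM of 163.8, 193.8 and 207.7 in the RC libraries and 212.1, 181.2 and 177.1 in the RM libraries. In mouse 2 of 6 rose and 4 fell (37.4% and 37.7% of all genes), led by Acta2, with sums of 179.7, 171.9 and 158.1 in the MC libraries and 11.8, 12.1 and 11.6 in the MM libraries. The rat sums overlapped, whereas the mouse sums were far apart, but each rests mostly on its leading gene. Tagln had a mean FPKM of 155.6 in RC and 169.2 in RM and was not called. In mouse it had 41 counts in MC and 13 in MM and was not tested. Acta2 was called lower in both species, at -0.85 in rat and -4.43 in mouse on the log2 scale. The markers that rose were Myh11 in rat (1.21) and Notch3 (1.93) and Rgs5 (2.86) in mouse. The part of these shifts, and of those in chondrocyte and fibroblast markers, in the changes of the elastic fibre genes was not tested.

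Endothelial markers were near 0, with summed FPKM of at most 0.174 in the rat libraries and 0.504 in the mouse libraries, led by Tek. None of 5 was tested in rat, and the 1 tested in mouse fell (37.7% of all genes). Macrophage and leukocyte markers, led by Cd68, summed to between 4.51 and 5.13 in the RC libraries, 7.04 and 9.52 in the RM libraries, 3.55 and 4.18 in the MC libraries and 8.11 and 9.60 in the MM libraries. Of 2 tested in each species, 1 rose and 1 fell in rat (18.3% and 16.8% of all genes) and 2 rose in mouse (37.4% of all genes), or 1 with library totals. Ptprc had at most 20 counts in any group, and Itgam had 0 counts in all mouse libraries, which allows up to 0.150 to 0.178 CPM in a library (3 counts, counting error only). Skeletal muscle markers summed to at most 1.72 in the rat libraries, led by Mylpf, and 2.80 in the mouse libraries, led by Acta1. The 1 tested in rat was not called, and of 3 tested in mouse 1 fell (37.7% of all genes). The part of the rise in Cd68 in the results was not tested.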

How the data were processed

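RNA-seq of cultured chondrocytes gave 12 libraries (NEBNext Ultra RNA kit), grouped by their treatment labels. The authors deposited raw read counts per Ensembl gene and FPKM for each library. The submitters' processing notes name HISAT2, HTSeq 0.11.2, GRCm38 and Rnor_6.0; the strand setting of the counting is not given in the sources used here, so reads of genes on opposite strands cannot be told apart. The deposited FPKM equalled count over gene length and column total within 0.1% for all 74340 rat and 77496 mouse values checked.

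Counts were fitted per species with edgeR 4.0.16 in R 4.3.3 (filterByExpr, TMM, glmQLFit, glmQLFTest), with Benjamini-Hochberg adjustment over all genes tested. The species difference came from 1 fit of all 4 groups over genes shared by symbol without regard to case, scaled within species. Ratios were tested by exact permutation in scipy 1.17.1. Alternatives used DESeq2 1.42.0, limma 3.58.1, other scalings, no filter, each library left out and a replicate block. The main tests, DESeq2 and limma were tried on simulated data.

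Named genes are the 10 members, per list and species up to 3 of the largest changes among called genes with a mean FPKM of at least 1, the 5 nearest patterns, and the most abundant marker of each cell type. The members and lists were chosen with earlier results of these data known.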

Additional observations from a re-analysis of the deposited data

Results flagged for a closer look

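The change with IL-1β differed between the species for 8 of the 9 genes tested in both, by the edgeR test of the mouse change less the rat change on the log2 scale. The difference was -4.69 for Eln, -2.18 for Mfap2, -1.45 for Fbn1, -1.08 for Mfap5, -0.47 for Fbn2 and -0.31 for Loxl1, and it was 0.41 for Fbln5 and 3.22 for Loxl2. Of these, Fbln5 lost its call with library totals (0.12) and with limma (0.14), and Mfap5 lost it without RC replicate 1, without RM replicate 2 and with the spread estimated in each species alone. Since 31.4% and 32.3% of all shared genes also differed upwards and downwards, the number of such genes says little. With library totals 2189 shared genes differed upwards and 5398 downwards, so these shares depend on the scaling. The sizes for Eln and Loxl2 and the opposite directions of Fbn1 and Loxl2 are what a reader may want to look at again. The falls of rat Loxl2 (-0.51) and mouse Fbn1 (-0.38) did not reach a log2 fold change of 0.85, so neither gene was called in opposite directions by the criteria for DEGs. Species, strain label and library spread differ together here and cannot be told apart.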

How the results depend on the processing

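Of 502 alternatives for single members, which include stricter thresholds on the same fit, 476 kept direction and call, 3 gained a call and 5 changed sign. Of the 18 that lost a call, 13 were thresholds on an unchanged value (in rat Loxl1 and Loxl2, in mouse Fbn1, Fbln5 and Loxl1, and the differences of Fbn2, Fbln5 and Loxl1), and 5 were refits (the differences of Fbln5 and Mfap5). All 5 sign changes were of rat Mfap5, which was called in none of its refits: 0.09 without RC replicate 2, 0.10 without RC replicate 3, 0.23 without RM replicate 1, 0.06 without RM replicate 3 and 0.00 in 1 fit of all 4 groups. Its lowest value was -0.46, without RM replicate 2. Low values shrink with a pseudocount by construction, so that limma on log2(FPKM + 1) gave -4.51 for mouse Eln and -2.37 for mouse Mfap4.

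The criteria for DEGs left 5 members lower in mouse, as did a log2 fold change of at least 1, without Fbn1, Fbln5 and Loxl1. Members whose signed difference, mouse less rat, was called above 0 numbered 1 (Loxl2) in place of 2 with library totals, with limma on log2(FPKM + 1) and with a difference of at least 0.85. With raw counts, the rise in the share of Lox was 28.39 percentage points in rat in place of 32.72 and 3.85 in mouse in place of 7.03, since counts carry gene length.

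By the criteria for DEGs, all genes gave 617 higher and 519 lower calls for rat, and 1862 and 1919 for mouse. At a log2 fold change of 1 or more they gave 526 and 522 for rat, and 2005 and 2212 for mouse. Limma on log2 FPKM, which is scaled by library totals, called 3639 higher and 7975 lower in mouse (pseudocount 1) and 3635 and 7969 (0.1), in place of 5521 and 5564. Species differences called above and below 0 were 2189 and 5398 with library totals, 2214 and 5326 with limma and 1508 and 1796 at 0.85 or more, in place of 3429 and 3530. Beyond thresholds and pseudocounts the cause was not tested.

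The labels do not say whether equal replicate numbers mark paired samples. Same-numbered libraries deviated together with correlations of 0.024, -0.098 and 0.085 in rat and 0.001, 0.015 and 0.005 in mouse. Rat libraries of different numbers reached -0.185 and 0.162. These values show no sign of pairing by number, but they cannot exclude it, since counting noise also lowers such correlations. With the replicate block, 2 members rose and 6 fell in rat, 2 rose and 8 fell in mouse, and all genes gave 2436 and 2098 in rat and 5503 and 5544 in mouse. Depth limits rat Mfap5 and the model group of mouse Mfap4 (11 counts in all) and Eln (63 counts).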
